A study of Mus musculus with 6 samples.

Results

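Serpins and inter-alpha-trypsin inhibitor heavy chains are plasma proteins that the liver secretes, and 10 of their genes were followed here: Serpina3k, Serpina3n, Serpina6, Serpina7, Serpina10, Serpina12, Itih1, Itih2, Itih3 and Itih4. They were taken by gene symbol from the array annotation, which named a probe set for 9 of the 10, each with 1 probe set, among 22180 genes and 34472 probe sets in all. Serpina3k has no probe set of its own name in that annotation and was not analysed here. The samples were livers of male mice aged 12 weeks on the C57Bl/6J background, all carrying the FAH5981SB point mutation that ends in an unstable, truncated fumarylacetoacetate hydrolase, a model of hereditary tyrosinemia type 1. In the continuous group (3 arrays) the mice drank NTBC at 8 mg/l throughout. In the withdrawal group (3 arrays) NTBC, a drug that blocks tyrosine breakdown upstream of the missing enzyme, was withheld for 7 days from the age of 11 weeks. All mice ate a chow low in tyrosine and phenylalanine, and the labels list dextrose at 3% in the drinking water of both groups. No group of mice with an intact Fah gene was analysed here, so the reference for every change is the mutant liver on NTBC. The labels call the replicates biological but name no animals, so the tests measure how far these samples spread, which may be technical in part.

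Serpins of clade A share a fold in which an exposed loop acts as bait for a protease, and several have lost that activity and carry hormones instead. Inter-alpha-trypsin inhibitor is built from heavy chains, the products of Itih genes, joined to the small protease inhibitor bikunin, which Ambp encodes. The secreted protein TSG-6, encoded by Tnfaip6, moves the heavy chains onto hyaluronan in the extracellular matrix. Hepatocytes make most of these proteins and release them into blood.

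After withdrawal 3 of the 4 Itih genes among the members fell 3.12- to 4.50-fold below their signal on NTBC. The thyroxine carrier Serpina7 rose 7.45-fold, and the coagulation inhibitor Serpina10 fell 2.0-fold. In all, 4 of the 9 measured members fell (Itih1, Itih3, Itih4 and Serpina10), 2 rose (Serpina7 and Serpina12) and 3 did not pass (Itih2, Serpina3n and Serpina6), by an adjusted p under 0.05 in limma's test over all probe sets. Over all probe sets 9.40% passed, 6.21% upward and 3.20% downward, and among the brighter part of the probe sets, with a mean signal at or above the median, 16.7% passed. Arrays of the 2 groups did not overlap for 8 of the 9 members, against 27.6% of all probe sets, dim ones included. The members were chosen with earlier results of these data known, so these shares do not test them as a set. The median log2 change was -0.45 over the 9 members and -0.08 over all probe sets. The 4 members that fell passed whichever array was left out. Of the 2 that rose, 1 was left (Serpina7) when replicate 1 or 3 of the continuous group, or replicate 1 or 2 of the withdrawal group, was omitted.

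**Figure D1:**
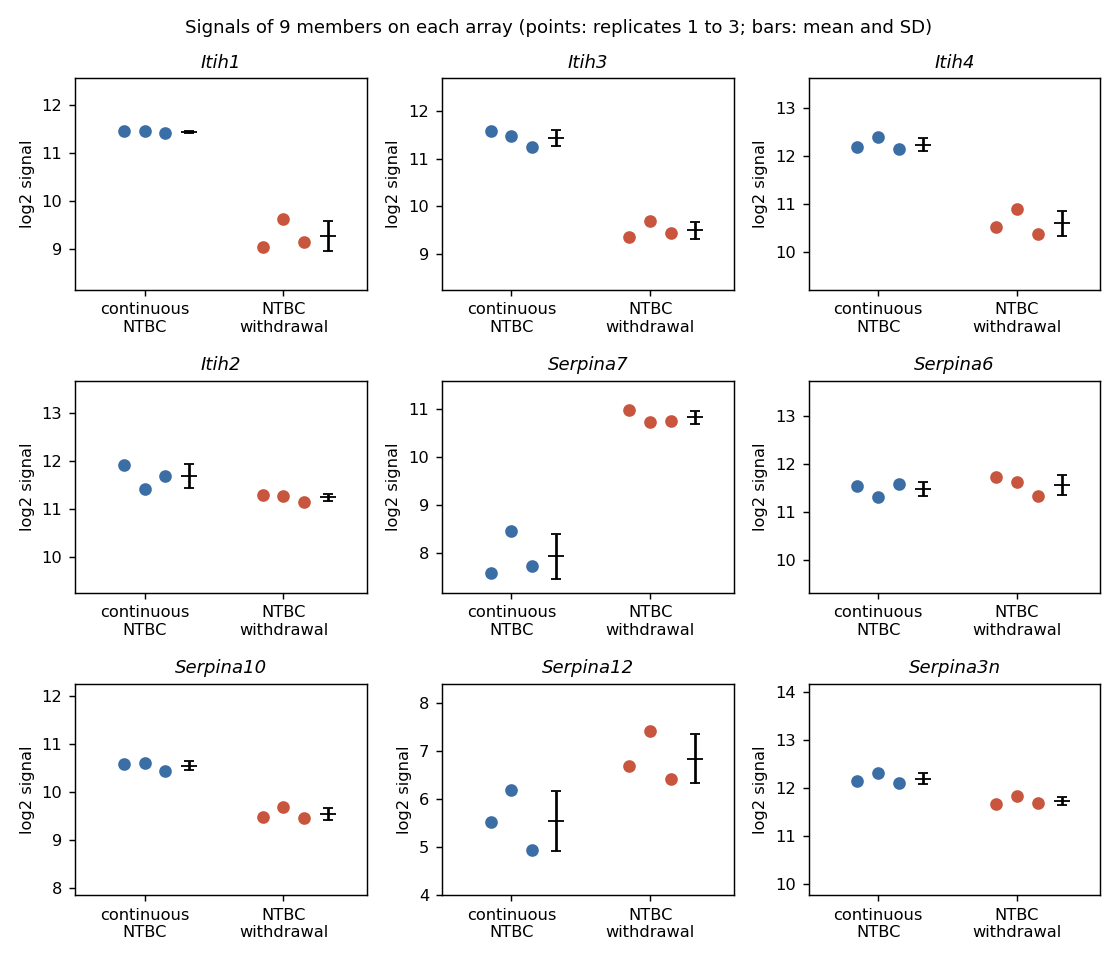
Log2 signal of the 9 measured members on each array (vertical axes, each spanning the same range of log2 units), with continuous NTBC in blue, NTBC withdrawal in red, points for replicates 1 to 3 from left to right, and black bars for mean and SD. Itih1, Itih3 and Itih4 drop by 1.64 to 2.17, Serpina7 climbs by 2.90, and Serpina6 is the one member whose groups overlap.

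Log2 changes are signals after withdrawal minus signals on continuous NTBC. Signals of different probe sets depend on their probes, so levels are not compared between genes. Each array had its lower quartile between 4.03 and 4.26 and its median between 5.21 and 5.44 on the log2 scale. Serpina12 alone among the members had a signal below an array median. In whole liver, fewer cells of a type and less RNA per cell cannot be told apart.

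Itih1 encodes heavy chain 1, which is joined to bikunin in the main plasma complex. Its log2 signals, given here and below in the order of the replicate numbers, were 11.45, 11.44 and 11.40 with NTBC and 9.03, 9.62 and 9.13 after withdrawal. All 3 withdrawal arrays lay at least 1.78 below the lowest continuous array, and the continuous arrays were nearly alike. The log2 change was -2.17 (SE 0.18, adjusted p = 6.38e-05), a 4.50-fold drop.

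Itih3 encodes heavy chain 3, which forms pre-alpha-inhibitor with bikunin. It read 11.58, 11.47 and 11.25 with NTBC and 9.36, 9.70 and 9.45 without it. The groups were 1.55 apart at their closest, and the change was -1.93 (SE 0.16, adjusted p = 7.43e-05), or 3.81-fold lower. Itih4 encodes a heavy chain relative that carries no bikunin and is a substrate of plasma kallikrein. Its signals of 12.18, 12.38 and 12.13 went to 10.51, 10.88 and 10.37, a change of -1.64 (SE 0.17, adjusted p = 2.98e-04) or 3.12-fold lower. In each of these 3 genes withdrawal replicate 2 was the highest of the withdrawal arrays.

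Itih2 encodes heavy chain 2, the partner of heavy chain 1 in inter-alpha-inhibitor. It measured 11.92, 11.42 and 11.68 in the continuous group and 11.29, 11.27 and 11.14 in the withdrawal group. The withdrawal arrays were all lower, by 0.13 at the closest, but the change of -0.44 (SE 0.17, adjusted p = 0.136) did not pass. With any 1 array left out it stayed between -0.57 and -0.32 and did not pass.

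Itih4, Itih3 and Itih1 are consecutive protein-coding genes on mouse chromosome 14, while Itih2 lies alone on chromosome 2 (RefSeq, GRCm38.p6). Within an array, the log2 difference between Itih4 and Itih1 went from 0.80 ± 0.12 to 1.33 ± 0.13 (SD, n = 3), so Itih4 lost 0.53 less than Itih1. That difference separated the groups (exact permutation p = 0.1, two-sided, the smallest p that 3 against 3 allows, 0.15 adjusted over 3 pairs). Itih4 minus Itih3 shifted by 0.29 (exact permutation p = 0.1, adjusted 0.15) and Itih3 minus Itih1 by 0.24, with overlapping groups (exact permutation p = 0.2, adjusted 0.2). No pair could have passed 0.05 in this design. Another planned pair, Serpina3n against Serpina3k, was not analysed here.

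Promoter sequences are shown for 2 of the neighbours that fell (Itih1 and Itih4) and for the Itih member that did not pass (Itih2). They are also shown for the member with the largest rise (Serpina7). Each is the run of 200 bases before the annotated start, 5′ to 3′ on the gene's strand, from RefSeq on GRCm38.p6, and capitals mark matches to the motifs named below. Positions are chr14:30943290-30943489 on the minus strand for Itih1, chr14:30886276-30886475 on the plus strand for Itih4, chr2:10130684-10130883 on the minus strand for Itih2 and chrX:139085237-139085436 on the minus strand for Serpina7. RefSeq also has another Serpina7 start slightly downstream, from which the TATA box below lies at -27 to -22 and not at -10 to -5.
Itih1: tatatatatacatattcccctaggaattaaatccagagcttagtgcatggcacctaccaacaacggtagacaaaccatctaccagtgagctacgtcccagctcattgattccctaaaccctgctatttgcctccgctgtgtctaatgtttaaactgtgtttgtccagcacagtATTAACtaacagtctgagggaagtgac
Itih4: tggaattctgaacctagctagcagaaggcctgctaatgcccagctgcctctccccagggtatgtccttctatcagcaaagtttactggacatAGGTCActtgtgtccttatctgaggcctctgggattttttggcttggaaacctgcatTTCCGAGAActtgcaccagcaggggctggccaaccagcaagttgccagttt
Itih2: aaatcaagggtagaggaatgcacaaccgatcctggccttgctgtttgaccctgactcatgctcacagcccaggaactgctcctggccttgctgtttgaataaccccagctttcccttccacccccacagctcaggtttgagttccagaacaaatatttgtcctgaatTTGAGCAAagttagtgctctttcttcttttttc
Serpina7: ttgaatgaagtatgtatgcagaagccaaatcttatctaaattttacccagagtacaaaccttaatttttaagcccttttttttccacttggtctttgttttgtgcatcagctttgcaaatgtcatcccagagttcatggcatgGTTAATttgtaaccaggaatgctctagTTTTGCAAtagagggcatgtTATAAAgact

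The motifs were searched on both strands in the 250 bases before the start. They were TATAAA (for a TATA box), GTTAAT (HNF1 motif), CAAAGTCCA (HNF4 site), TGTTTAC (forkhead site), TTGCNNAA (C/EBP core), TTCNNNGAA (STAT core), TGACNNNGC (antioxidant response core) and AGGTCA (nuclear receptor motif). RefSeq gave such a window for 7 of the 10 members. Itih1 had 1 HNF1 motif and Itih2 a C/EBP core. Itih4 had a nuclear receptor motif and a STAT core, whose pattern matched on both strands at the same bases. Serpina7 had a TATA box, an HNF1 motif and a C/EBP core. In the windows not printed, Itih3 had an antioxidant response core, Serpina12 a C/EBP core and Serpina3n none of the 8. None of these matches overlapped a match to another motif. Of 32536 distinct windows of this length, 12.3% hold the TATA box, 6.47% the HNF1 motif, 0.387% the HNF4 site, 3.17% the forkhead site, 9.57% the C/EBP core, 7.04% the STAT core, 10.2% the antioxidant response core and 14.0% the nuclear receptor motif. No motif was found in all 3 of Itih1, Itih3 and Itih4. A match is a run of letters and not a measured binding site.

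The light chain gene showed no such drop. Ambp, whose product is cut into bikunin and alpha-1-microglobulin, read 12.36, 12.40 and 12.31 with NTBC and 12.26, 12.39 and 12.17 without it. Its groups overlapped, and its change of -0.08 (SE 0.14, adjusted p = 0.767) turned to 0.017 with arrays scaled to a common median. Itih5, a heavy chain relative expressed in many tissues, went from 7.81, 7.45 and 7.01 to 8.18, 8.26 and 7.98, with no overlap. Its change of 0.72 did not pass (adjusted p = 0.0560), but did under 7 of 9 other settings, the replicate block included (adjusted p = 0.0322), and without continuous replicate 1 (adjusted p = 0.0147). Tnfaip6 had a change of 0.50 (adjusted p = 0.125) at signals of 4.43 to 5.42. Of 14 measured partner and hyaluronan genes, 1 rose and none fell, with a median of 0.01. This is near the shares of all probe sets, of which 6.21% rose and 3.20% fell. The gene of this list that rose was Lyve1, a hyaluronan receptor of lymphatic and sinusoidal endothelium (1.07, adjusted p = 0.0324). Omitting replicate 2 of the continuous group or any 1 withdrawal array ended its call (adjusted p up to 0.130) and left 0 higher, and omitting replicate 1 of the continuous group gave 2 higher. The Lyve1 call was also lost with quantile normalization (adjusted p = 0.0661) and with signals raised to the lower quartile (0.0547). Stab2, an endothelial scavenger receptor that clears hyaluronan, had a change of 0.36 (adjusted p = 0.192).

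**Figure D2:**
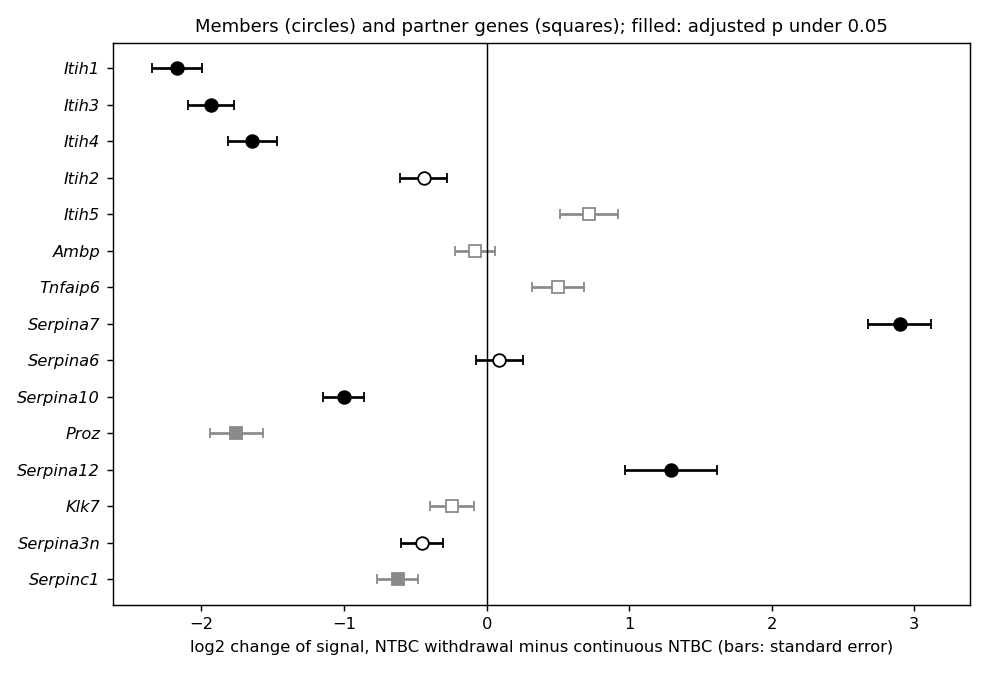
Log2 change of signal, withdrawal minus continuous NTBC, on the horizontal axis, with standard errors as bars, for the 9 measured members (circles) and for 6 genes of their partners, targets or relatives (squares); filled symbols passed the test. Itih1, Itih3 and Itih4 lie at -2.17, -1.93 and -1.64, while Itih2 lies at -0.44 and Ambp at -0.08.

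Serpina7 encodes thyroxine-binding globulin, a serpin without inhibitor activity that carries thyroid hormone in plasma. Its signals were 7.58, 8.46 and 7.73 on the continuous arrays and 10.98, 10.73 and 10.75 on the withdrawal arrays. The groups were 2.27 apart at their closest, with continuous replicate 2 the highest of the low arrays. The change of 2.90 (SE 0.22, adjusted p = 4.56e-05) was the largest among the members in either direction. It ran from 2.73 to 3.17 with any 1 array left out.

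Serpina6 encodes corticosteroid-binding globulin, the carrier of glucocorticoids. It measured 11.55, 11.32 and 11.58 with NTBC and 11.74, 11.64 and 11.34 without it. The groups overlapped, and the change of 0.09 (SE 0.16, adjusted p = 0.783) did not pass. The changes of the 2 hormone carriers, 2.90 and 0.09, were not tested against each other.

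Of 17 measured genes for other hormone carriers and for hormone response, 2 rose and 3 fell, with a median of -0.05. Of all probe sets 6.21% rose and 3.20% fell. Dio1, the deiodinase that turns thyroxine into its active form, fell 6.81-fold, from 10.10, 10.47 and 9.36 to 7.29, 7.59 and 6.75 (adjusted p = 2.98e-04). Thrsp, a lipogenic gene induced by thyroid hormone, fell 10.4-fold, while Me1, malic enzyme, which thyroid hormone also induces, rose 2.88-fold. The glucocorticoid-induced gene Fkbp5 rose by 0.85 (adjusted p = 0.00974). Tsc22d3, another glucocorticoid-induced gene, named after its values were seen because it completes the count, fell (-1.03, adjusted p = 0.0312). Its call held without replicate 1 of the continuous group and was lost with any other array omitted (adjusted p up to 0.125) and with signals raised to the lower quartile, which left 2 lower. Without withdrawal replicate 1 the Fkbp5 call was lost (adjusted p = 0.0566) and 1 member of this list was higher, and without continuous replicate 3, 4 were.

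Serpina10 encodes the protein Z-dependent protease inhibitor, which blocks coagulation factor Xa with protein Z as cofactor. Its signals of 10.58, 10.61 and 10.44 went to 9.48, 9.69 and 9.45. The groups were 0.75 apart at their closest, and the change was -1.0 (SE 0.15, adjusted p = 0.00213). Proz, the gene of protein Z, also fell, from 10.82, 10.59 and 10.53 to 8.65, 9.25 and 8.77 (-1.76, SE 0.19, adjusted p = 3.15e-04), and its change was not tested against that of Serpina10. F10, the gene of the target factor, named after its values were seen, had a change of -0.37 (adjusted p = 0.166) and did not pass.

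Among 17 measured genes of proteases and their cofactors, matrix metalloproteinases included, 9 fell and none rose, with a median of -0.67. Over all probe sets 3.20% fell, and among the brighter part of them 16.7% passed in either direction. This list was chosen with earlier results of these data known and was not tested as a set. F7, which starts coagulation with tissue factor, fell by 2.19 (SE 0.16, adjusted p = 3.66e-05). F12 of the contact pathway fell by 1.23 and Proc, the anticoagulant protein C, by 1.04. With any 1 array left out, 7 or 8 of these genes were lower. Gzmb, the granzyme B gene, named after its values were seen, was among the 9 (-0.67, adjusted p = 0.0439). Its withdrawal signals of 3.77, 3.53 and 4.10 lay within or below the range of the arrays' lower quartiles, so its change is uncertain.

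Serpina12 encodes vaspin, a serpin first known from fat tissue that inhibits the kallikrein protease Klk7. It read 5.53, 6.18 and 4.93 with NTBC and 6.68, 7.41 and 6.42 after withdrawal. The groups were apart by 0.24 at their closest, with a wide spread within each. The change was 1.29 (SE 0.32, adjusted p = 0.0321), or 2.45-fold, with continuous replicate 3 below the array medians. Its adjusted p rose to 0.0546 and 0.0898 when replicates 1 and 3 of the continuous group were omitted in turn, and to 0.0770 and 0.123 when replicates 1 and 2 of the withdrawal group were. Quantile normalization gave 0.0508, so the call rests on most of the arrays and on the scaling. Klk7 had a change of -0.24 (adjusted p = 0.384) at signals of 5.82 to 6.38.

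Serpina3n, a mouse relative of human alpha-1-antichymotrypsin and an inhibitor of granzyme B and cathepsin G, is known as an acute phase gene of the liver. Its signals of 12.16, 12.32 and 12.10 went to 11.68, 11.84 and 11.70. All withdrawal arrays were lower, by 0.26 at the closest, and the change of -0.45 (SE 0.14, adjusted p = 0.0825) did not pass. Its adjusted p ran from 0.0157 to 0.246 over 9 other settings, of which 4 passed. With single arrays omitted it ran from 0.0877 to 0.290, and none passed. Serpina3k and Serpina3m, which lie near it on the chromosome, were not measured here. Whether their transcripts add to this signal was not tested.

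Acute phase genes, which inflammatory cytokines raise in hepatocytes, were lower in part. The list also holds cytokine receptors and signalling genes. Of 24 measured, 7 fell and none rose, with a median of -0.37. Over all probe sets 3.20% fell, and of the brighter part 16.7% passed in either direction. Among the 17 that did not pass were Hp (0.06), Hpx (0.003), Cp (0.007) and Apcs (0.46), named after their values were seen. Saa2, a serum amyloid A gene, went from 8.75, 10.89 and 9.32 to 4.38, 4.51 and 4.49. The withdrawal signals lay close to the lower quartile of the arrays, so the size of this drop is uncertain. Crp, C-reactive protein, fell by 2.17, and Lbp, which binds bacterial lipopolysaccharide, fell by 1.88. Fgg, the fibrinogen gamma chain, fell by 1.12. Continuous replicate 2 had the highest Saa2 signal, and its 10.89 compares with 9.32 on the next array. Without that array the Saa2 change was -4.58, against -5.19 with all arrays.

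Serpina6, Serpina10, Serpina12 and Serpina3n sit in 1 cluster of 28 Serpina genes and pseudogenes on chromosome 12, of which 19 were measured. In that cluster 4 fell and 2 rose, against 3.20% and 6.21% of all probe sets. Serpina1e and Serpina11, which both fell, are neighbours, and Serpina12, Serpina4-ps1 and Serpina5 lie in a row in which the middle gene fell and the outer ones rose. Serpina10 stands next to Serpina6, and Serpina12 follows Serpina9 and precedes Serpina4-ps1 and Serpina5. Serpina4-ps1, which the symbol marks as a pseudogene, fell by 2.42 (SE 0.37, adjusted p = 0.00270), from 11.70, 9.96 and 10.33 to 8.26, 8.47 and 8.00. Serpina5, the protein C inhibitor, rose by 1.29 (SE 0.18, adjusted p = 0.00182) at low signals of 4.72 to 6.41.

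Serpina1a to Serpina1e are the mouse copies of alpha-1-antitrypsin, the main plasma inhibitor of neutrophil elastase. Their transcripts are near identical and can bind each other's probes, so values of single copies are uncertain. Serpina1e went from 12.49, 12.35 and 12.41 to 10.18, 10.80 and 10.10, a change of -2.06 (SE 0.20, adjusted p = 1.58e-04). Serpina1a had a change of -0.77 (adjusted p = 0.0625), which passed without continuous replicate 3 (adjusted p = 0.0395) or withdrawal replicate 2 (0.0312) and with the replicate block (0.0266). The changes of Serpina1b (-0.03, with a sign that turns under some settings), Serpina1c (-0.18) and Serpina1d (-0.24) did not pass. Serpina11, a further clade A serpin, fell by 2.0 (SE 0.23, adjusted p = 4.78e-04). Over the 15 measured clade A genes that are not members, 3 fell and 1 rose, with a median of -0.18, and without continuous replicate 3, 5 fell. Of all probe sets 3.20% fell and 6.21% rose.

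**Figure D3:**
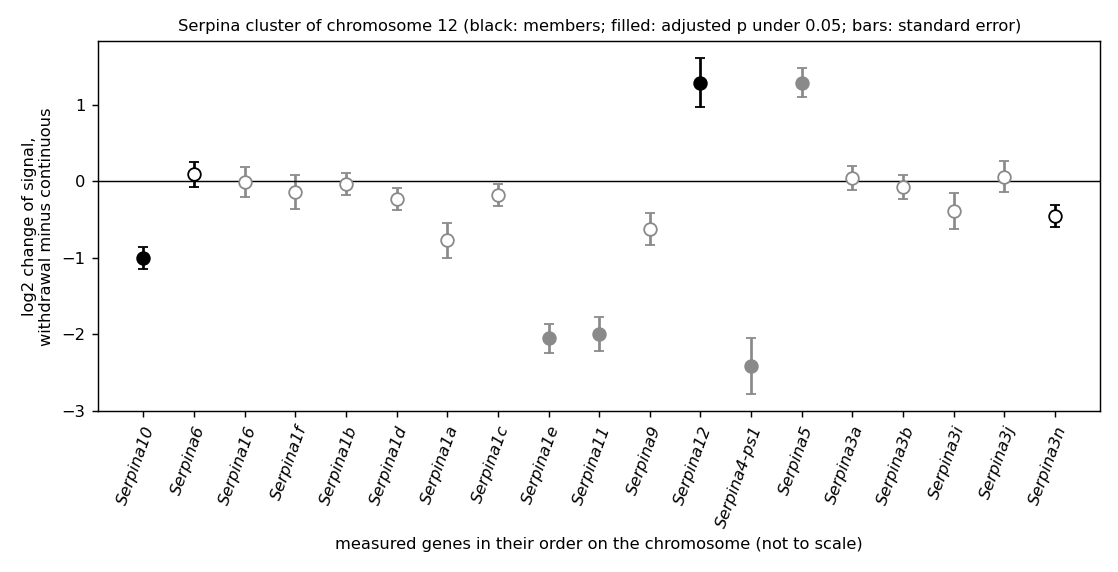
Log2 change of signal (vertical axis, bars for standard errors) of the 19 measured Serpina genes of chromosome 12, in their order along it and not to scale, with members in black, others in grey and filled symbols for genes that passed the test. Changes of -1.0, -2.06, -2.0 and -2.42 and rises of 1.29 at Serpina12 and Serpina5 stand among genes that did not pass.

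Where 3.20% of all probe sets fell, 5 of 18 measured serpins of other clades fell and none rose, with a median of -0.15. These were Serpinf2, alpha-2-antiplasmin (-0.98), Serpinf1, pigment epithelium-derived factor (-0.99), Serpind1, heparin cofactor II (-0.90), Serping1, the C1 inhibitor (-0.73), and Serpinc1, antithrombin (-0.62, adjusted p = 0.0234). Serpinc1 read 12.17, 12.06 and 12.18 with NTBC and 11.54, 11.63 and 11.37 after withdrawal. Omitting replicate 3 of the continuous group or any 1 withdrawal array ended the call (adjusted p up to 0.101), as did median centring (0.0911). The Serpind1 call was lost with replicate 2 or 3 of the continuous group or replicate 1 of the withdrawal group omitted (adjusted p up to 0.0641) and with median centring (0.0566). The Serping1 call was lost with replicate 1 of the withdrawal group omitted (adjusted p = 0.0814). The lower count was 3 without continuous replicate 3 and with median centring, 2 without withdrawal replicate 1, and 0 among changes of at least 2-fold.

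The test passed 9.40% of all probe sets in either direction, and 16.7% of the brighter part. Further plasma protease inhibitors passed at close to the latter share. Of 20 measured, 2 fell and 1 rose, with a median of -0.10. The 2 were the murinoglobulins Mug1 (13.23, 13.30 and 13.20 to 11.01, 11.63 and 11.25, 3.86-fold lower) and Mug2 (3.22-fold lower), which trap proteases of many kinds and are close copies of each other. Spink1, a trypsin inhibitor, rose by 1.18 (adjusted p = 0.0335), from 4.03, 4.18 and 4.77 to 5.88, 5.86 and 4.79. Its call did not hold with replicate 1 or 2 of either group omitted (adjusted p up to 0.138). Raising signals to the lower quartile also ended it (adjusted p = 0.0632), and the filter on dim probe sets left Spink1 out. Spint2, an inhibitor of membrane-bound proteases, had a change of 0.47 (adjusted p = 0.0620), which passed under 7 of 9 other settings (adjusted p down to 0.0176) but with none of the 6 arrays omitted in turn. The higher count was 2 under 5 of those settings, and 0 without replicate 1 of the continuous group or replicate 1 or 2 of the withdrawal group.

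Among 20 measured liver transcription regulators and growth hormone pathway genes, 4 fell and none rose, with a median of -0.29. Of all probe sets 3.20% fell, and of the brighter part 16.7% passed in either direction. Igf1, the growth factor that growth hormone induces, fell by 1.41 (SE 0.20), and Ghr, the growth hormone receptor, fell by 1.13 (SE 0.19). Onecut1, a hepatocyte transcription factor, fell by 1.81 (SE 0.35). Cebpa, another such factor, fell by 0.58 (adjusted p = 0.0477). Its call was lost without any 1 array other than continuous replicate 3 (highest adjusted p = 0.196), after median centring (0.15) and with the replicate block (0.0592).

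**Figure D4:**
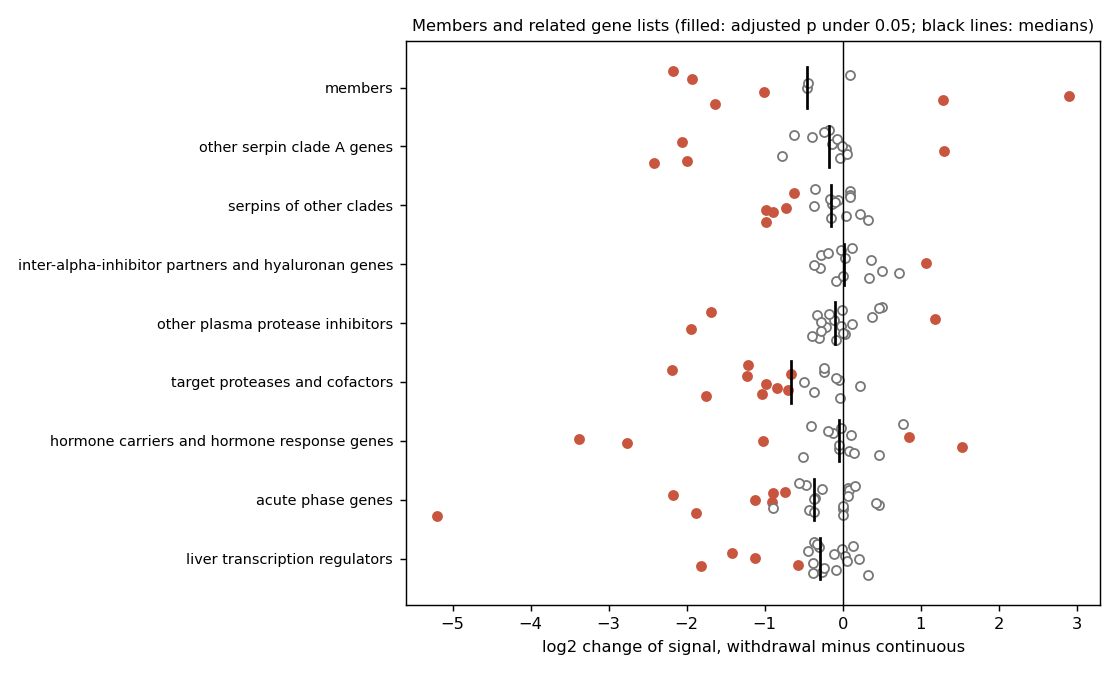
Log2 change of signal (horizontal axis) of every measured gene in the members' list and in 8 related lists, 1 row a list, with filled points for genes that passed the test and black lines for list medians; points are spread vertically for legibility. The members run from -2.17 to 2.90 with a median of -0.45, and the list medians lie between -0.67 (target proteases and cofactors) and 0.01 (inter-alpha-inhibitor partners).

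Markers of liver cell types were read beside these results, and their part in them was not tested. Of all probe sets 9.40% passed, and of the brighter part 16.7%. Of 7 measured hepatocyte markers, 1 fell (Cps1, -1.08) and none rose, with a median of -0.07 and summed intensities of 56326.4 to 60726.2 in the continuous group and 51003.1 to 55239.9 after withdrawal. Sinusoidal endothelial markers had 2 of 8 higher, Clec4g (0.81) and Lyve1, with summed intensities of 1272.8 to 1622.9 with NTBC and 2068.9 to 2143.3 after withdrawal. With single arrays omitted, 1 to 4 of these 8 were higher. No marker passed among 10 of Kupffer cells, 9 of stellate cells, 8 of T and B cells, 5 of cholangiocytes, 5 of pancreatic acinar cells and 4 of adipocytes by the adjusted p. Retnlg fell among 8 neutrophil markers (-0.65) and Cd14 rose among 6 of monocytes (1.14), and each of these calls was lost without at least 4 of the 6 arrays in turn. The pancreatic gene Cpb1, named after its values were seen, read 7.18 on continuous replicate 2 and 2.99 to 3.78 on the others. Each of the other measured pancreatic markers also had its highest signal on that array. Without that array the same numbers of members passed, 2 higher and 4 lower.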

How the data were processed

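Liver RNA of 6 samples was hybridised to Affymetrix whole-transcript mouse gene arrays. The authors deposited normalized intensity values on a linear scale, 1 per probe set and array. The submitters' processing notes name Transcriptome Analysis Console. Its version, background correction and normalization are not given in the sources used here. The table has no detection flags, so a low signal is no statement of absence.

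From these, log2 values of the 34472 probe sets entered 1 linear model per probe set (limma 3.58.1, R 4.3.3, lmFit and eBayes), with no filter and no covariate. Tests were two-sided, and p-values were adjusted by Benjamini-Hochberg across the table, with a threshold of 0.05. Genes were named from the platform annotation (23521 probe sets with 1 symbol, 1814 with several, which named no gene, and 9137 with none), taking the brightest probe set of a gene. All 9 measured members matched RefSeq by gene ID. Exact permutation tests used scipy 1.17.1. The model was tested first on simulated data in which 100 probe sets changed by 1 log2 unit and 100 by 2. It recovered 39 and 90 of them, with 7 false calls. Fewer probe sets changed there than passed here, so these shares need not hold for these data. A gene that did not pass may still have changed. With 3 arrays per group, precision is limited by their number.

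Members and lists were chosen with earlier results of these data known. From each related list up to 4 genes with the smallest p-values were named, with Ambp, Serpinc1, Serpina1a to Serpina1e, Proz and Klk7 always. F10, Tsc22d3, Cpb1, Gzmb, Hp, Hpx, Cp and Apcs were added afterwards. The alternatives were other normalizations, a filter on dim probe sets, the replicate block, array weights, trend and robust options, 1-symbol probe sets, gene means, raised low signals, a 2-fold threshold and arrays left out in turn.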

Additional observations from a re-analysis of the deposited data

How the results depend on the processing

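Changes of the 9 measured members kept their direction under every alternative run. The calls of Itih1, Itih3, Itih4, Serpina7 and Serpina10 held in all of them, and those of Serpina6 and Itih2 stayed short of the threshold. The count of higher members was 1 with quantile normalization and with signals raised to the lower quartile (adjusted p = 0.0608 for Serpina12), and 1 to 2 with arrays left out. Of all probe sets 9.40% passed, and of the brighter part 16.7%. Over the 8 related lists, 38 of 145 measured genes passed, 5 higher and 33 lower. With at least a 2-fold change these were 24 in all and 20 lower, with array weights 8 were higher, and with arrays left out 2 to 7 were higher, the lowest without withdrawal replicate 1. Without withdrawal replicate 2, 3 were higher. Ambp changed sign after median centring (0.017), and Serpina1b after median centring (0.067), with array weights (0.032) and with arrays left out (-0.085 to 0.012). None of these values passed. The cause of these shifts was not tested.

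The labels do not say that the replicate numbers pair animals, so they were not taken to do so. Same-numbered arrays of the 2 groups deviated from their group means with correlations of 0.160, -0.125 and 0.217 across probe sets. Differently numbered arrays had correlations of -0.359 to 0.253. With the replicate block 6 members passed, 2 higher and 4 lower, as without it, and 39 genes of the related lists. Background was not given, so changes that involve signals below an array median, such as those of Serpina12, Serpina5, Spink1 and Saa2, are uncertain in size.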
